A study of Ciona robusta with 133 samples.

Results

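Gata.a and Ets1/2 are transcription factors whose RNA the ascidian egg receives from the mother, and they were followed as the gene models KH.L20.1 (Gata.a) and KH.C10.113 (Ets1/2). They are 2 of the 15287 gene models in the count table, chosen by identifier and described in every one of the 19 cell types and 5 stages that were collected. The table and the reference used here do not pair KH identifiers with gene names, so both names rest on the identifiers chosen and no other gene is named by symbol. For the same reason the labelled cell types could not be checked against marker genes.

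Gata.a is a zinc-finger factor of the GATA family, which binds GATA motifs in DNA. Ets1/2 is a factor of the ETS family and a nuclear target of the FGF, MEK and ERK kinase pathway. In Ciona embryos, FGF signalling acts through both factors on neural targets such as Otx in the anterior animal (a-line) neural precursor, and the ERK pathway is used again in the anterior vegetal (A-line) lineage, where it separates neural from notochord fate. Both transcripts are present in the egg, so their level in a blastomere depends on inherited RNA as well as on what the embryo itself transcribes.

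The libraries came from single blastomeres cut by hand from Ciona robusta embryos at 16, 32, 64 and 112 cells and at the neural plate stage with 6 rows of cells, and the labels name no treatment or genotype. The A-line series on the neural side ran through A5.1, A6.2, A7.4, A8.7 and A9.13+A9.14, with A6.1, A7.2, A7.3, A8.5 and A9.9+A9.10 as partner cells. The a-line series on the neural side ran through a5.3, a6.5, a7.10, a8.19 and a9.37+a9.38, and its partner cells were a6.6 at 32 cells, a7.11 at 64, a8.22 at 112 and a9.43+a9.44 at the neural plate. By textbook fate maps the A-line partners other than A6.1 and A7.2 belong to the notochord and the a-line partners from 64 cells on to the epidermis. The neural plate labels name a pair of cells and a left or right column, 1 or 2, without saying which cell a library holds. Some neural plate embryo samples held libraries of both columns and others of column 2 only. A difference between columns was not tested. Libraries of the same cell type and embryo were summed, so n counts embryos throughout, between 2 and 8 for a cell type.

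Total counts ranged from 1452103 to 16599891 per library over 133 libraries. 1 library stood apart, an A6.1 cell from the left side of embryo 5 with 7137 genes detected against at least 9667 in every other library. It held 1673 counts of Gata.a (149 CPM, which scales counts to a fixed library total) and 4974 counts of Ets1/2 (444 CPM). It was left out of every value below unless it is named, which left 132 libraries in 86 embryo samples from 43 embryos. Putting it back barely moved the fold changes of cell types other than A6.1 but ended 13 of the 15 calls made for Gata.a and Ets1/2 in a fit where all cell types share 1 estimate of the spread. In that fit the TMM scaling gave this library a factor of 0.0336, against 1.02 to 1.08 in the other A6.1 samples. How far the lost calls follow from this factor was not tested. The adjusted p with the library put back is given beside each call.

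Gata.a RNA was at its highest at 16 cells and at its lowest at the neural plate stage, with a mean over cell types of 86.9 CPM at the former and 12.0 CPM at the latter. Its level, in CPM scaled by TMM and averaged over embryos, was 91.6 ± 31.1 (SD, n = 5) in a5.3 and 82.1 ± 9.12 (SD, n = 5) in A5.1. At 32 cells the 4 cell types lay close together, between 50.8 in a6.5 and 62.5 in A6.1. At 64 cells they spread over a 2.83-fold range, from 17.0 ± 3.89 (SD, n = 4) in A7.3 to 48.0 ± 11.7 (SD, n = 6) in a7.11, with the 3 A-line types below both a-line types in mean. At 112 cells the means ran from 17.3 in a8.22 to 26.6 in A8.5, and at the neural plate stage from 7.61 in A9.9+A9.10 to 19.4 in a9.37+a9.38.

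Embryos scattered more widely in the late cells than in the early ones. The 5 A5.1 samples were at 78.9, 85.5, 82.2, 69.6 and 94.5 CPM and the 4 A7.4 samples at 19.3, 18.2, 19.9 and 23.9 CPM, so that these groups did not overlap. The coefficient of variation between embryos had a median of 22.5% at 16 cells, 30.7% at 32, 24.4% at 64, 50.2% at 112 and 78.1% at the neural plate stage. In the last of these, A9.13+A9.14 was at 21.3% (n = 2) and the other cell types between 69.3% and 95.1%. In A9.9+A9.10 the samples were at 10.9, 11.9 and 0 CPM, and in a9.43+a9.44 at 9.35, 16.0 and 0 CPM. Both samples at 0 were 1 library each, labelled left column 2. For these, 0 of 3323309 counts allows up to 0.903 CPM, and 0 of 6232890 counts up to 0.481 CPM.

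Ets1/2 RNA ran the other way and was at its highest on the neural side at the neural plate stage. Its level was 351 ± 71.3 (SD, n = 2) in A9.13+A9.14 and 316 ± 64.4 (SD, n = 3) in a9.37+a9.38, with A8.7 next at 239 ± 45.0 (SD, n = 5). The lowest levels were those of a6.5, at 75.4 ± 20.8 (SD, n = 5), and A5.1, at 81.4 ± 18.0 (SD, n = 5). The cell types of a stage lay within a 1.22-fold range at 16 cells, 1.89-fold at 32, 1.43-fold at 64, 1.86-fold at 112 and 2.24-fold in the neural plate. In contrast to Gata.a, the coefficient of variation of Ets1/2 between embryos stayed near 20% in its stage medians, which ran from 18.7% to 21.7%. Among single cell types it ran from 3.84% in A9.9+A9.10 to 51.8% in A8.5.

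**Figure D1:**
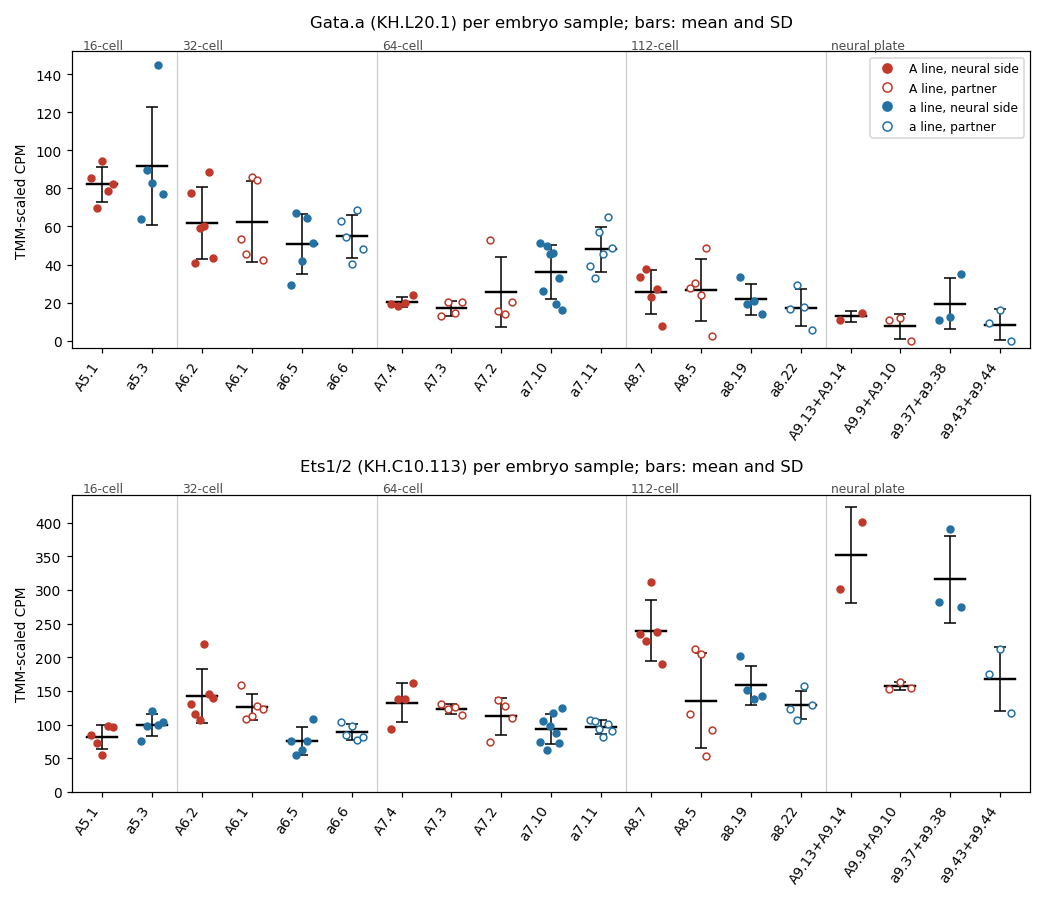
Level of Gata.a (upper) and Ets1/2 (lower) in TMM-scaled CPM for every embryo sample of the 19 cell types, ordered by stage on the horizontal axis, with horizontal lines at the mean and bars of 1 SD; red stands for the A line, blue for the a line, and open points for partner cells. Gata.a means descend from 91.6 CPM in a5.3 to 7.61 CPM in A9.9+A9.10, and the highest Ets1/2 means are 351 CPM (A9.13+A9.14) and 316 CPM (a9.37+a9.38).

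Ordered by level, few neighbouring cell types were separated by more than the larger of their SDs. For Gata.a this held for 1 of 18 neighbouring pairs, A7.3 against A9.13+A9.14, which lie at 17.0 and 12.8 CPM. For Ets1/2 it held for 2 of 18, a9.37+a9.38 against A8.7 and A8.7 against a9.43+a9.44, and the means of A9.13+A9.14, a9.37+a9.38 and A8.7 stood above those of the other 16 types. Gata.a had no count in 3 of the 132 libraries and a median of 226 counts. Ets1/2 had between 291 and 2987 counts in each of the 132 libraries, with a median of 881.

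Between 16 cells and the neural plate stage, Gata.a fell in all 4 cell series that were compared, by edgeR's quasi-likelihood test with Benjamini-Hochberg adjustment over all genes and a threshold of 0.05 on the adjusted p. From A5.1 to A9.13+A9.14 its 5 samples between 69.6 and 94.5 CPM compare with samples at 10.8 and 14.7 CPM, and the fitted log2 fold change was -2.68 ± 0.79 (SE; adjusted p = 0.00864, and 0.108 with the A6.1 library put back). From A5.1 to A9.9+A9.10, the notochord partner, it was -3.38 ± 0.69 (adjusted p = 6.39e-05, and 0.00774 with that library). From a5.3 to a9.37+a9.38, where samples at 82.8, 89.8, 145, 77.0 and 64.0 CPM compare with 10.8, 12.5 and 34.8 CPM, it was -2.24 ± 0.65 (adjusted p = 0.00688, and 0.0879 with that library). From a5.3 to a9.43+a9.44, the epidermal partner, it was -3.43 ± 0.69 (adjusted p = 8.26e-05, and 0.0101 with that library). No neural plate sample reached the lowest 16-cell sample of its lineage. Both A-line series start from the same A5.1 samples and both a-line series from the same a5.3 samples. A5.1 and a5.3 come from the same embryos, so the 4 series are not independent. CPM is a share of the reads of a library, so a lower share of Gata.a and a larger amount of other RNA cannot be told apart.

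These 4 calls were made where many genes moved. 20.7% of the 13794 genes tested passed the threshold from A5.1 to A9.13+A9.14 and 30% from A5.1 to A9.9+A9.10. In the a line 23.4% passed from a5.3 to a9.37+a9.38 and 23.8% from a5.3 to a9.43+a9.44. Gata.a stood toward the lower end of all genes: 6.55% of genes had a lower log2 fold change from A5.1 to A9.13+A9.14, and 4.57% from a5.3 to a9.43+a9.44. The call in A9.13+A9.14 was lost without neural plate A-line embryo 1 (adjusted p = 0.117) and without embryo 2 (adjusted p = 0.0678), when the remaining sample is taken to vary as the other groups do. The call in a9.37+a9.38 was lost without neural plate a-line embryo 1 (adjusted p = 0.051), and its log2 fold change was -3.06 without embryo 3, the one at 34.8 CPM. Without the embryo at 0 the log2 fold change was -2.90 in A9.9+A9.10 and -2.94 in a9.43+a9.44, and it was -4.32 in a9.43+a9.44 without embryo 2.

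Ets1/2 rose over the same interval in all 4 series, in the same comparisons where 20.7% to 30% of genes passed. From A5.1 to A9.13+A9.14 its samples at 84.9, 73.3, 54.7, 98.5 and 95.8 CPM compare with 301 and 402 CPM, a log2 fold change of 2.11 ± 0.27 (SE; adjusted p = 3.01e-09, and 0.0504 with the A6.1 library put back). From A5.1 to A9.9+A9.10, with samples at 153, 164 and 154 CPM, it was 0.95 ± 0.25 (adjusted p = 0.00163, and 0.335 with that library). These groups did not overlap with A5.1. From a5.3 to a9.37+a9.38, with samples at 282, 390 and 275 CPM, it was 1.67 ± 0.24 (adjusted p = 1.06e-07, and 0.0828 with that library). From a5.3 to a9.43+a9.44, with samples at 175, 212 and 117 CPM, it was 0.76 ± 0.25 (adjusted p = 0.0165, and 0.501 with that library), and here the groups overlapped, since a5.3 reached 119 CPM. That last call was lost without 16-cell embryo 5 (adjusted p = 0.0688), without neural plate a-line embryo 1 (adjusted p = 0.0857) and without neural plate a-line embryo 2 (adjusted p = 0.247). On the neural side 13.2% of genes had a higher log2 fold change than Ets1/2 in A9.13+A9.14 and 16.7% in a9.37+a9.38. In the partners it was 27.2% in A9.9+A9.10 and 30.2% in a9.43+a9.44. The 4 series share samples and embryos here as they do for Gata.a. A higher share of Ets1/2 and a smaller amount of other RNA cannot be told apart either.

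Whether the change from 16 cells to the neural plate differed between the lineages was tested as the A-line change minus the a-line change on the neural side. The difference was -0.44 ± 0.90 for Gata.a and 0.44 ± 0.38 for Ets1/2 on the log2 scale, and neither passed the threshold (adjusted p = 1 for both). The 95% intervals ran from -2.20 to 1.33 for Gata.a and from -0.30 to 1.18 for Ets1/2. 0.0797% of genes passed in this comparison.

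Taken stage by stage along the A line, Ets1/2 passed the threshold at separate steps, and no step was tested against another of the same lineage. It rose from A5.1 to A6.2, where the A6.2 samples lay between 107 and 219 CPM with a median of 135 CPM and above every A5.1 sample, by a log2 fold change of 0.81 ± 0.21 (adjusted p = 0.00536, and 0.525 with the A6.1 library put back), in a step where 11% of genes passed. From A6.2 to A7.4 its log2 fold change was -0.10 ± 0.22 (adjusted p = 0.90), and 4.16% of genes passed. It rose again from A7.4, with samples at 93.2, 137, 138 and 162 CPM, to A8.7, with samples at 235, 224, 312, 237 and 189 CPM. This log2 fold change was 0.85 ± 0.23 (adjusted p = 0.0236, and 0.619 with that library), the groups did not overlap, and 3.67% of genes passed. From A8.7 to A9.13+A9.14 it was 0.55 ± 0.28 and missed the threshold (adjusted p = 0.262), where 5.71% of genes passed. The step from A7.4 to A8.7 lost its call without 64-cell A-line embryo 2 (adjusted p = 0.106), 64-cell A-line embryo 4 (adjusted p = 0.058) or 112-cell A-line embryo 3 (adjusted p = 0.0588), and in a fit of the A line alone (adjusted p = 0.0688).

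Along the a line Ets1/2 passed the threshold at the last steps, again without a test of one step against another. From a5.3 to a6.5 its log2 fold change was -0.40 ± 0.22 (adjusted p = 0.515), where 0.747% of genes passed, and from a6.5 to a7.10 it was 0.30 ± 0.20 (adjusted p = 0.356), where 10.8% passed. From a7.10, with samples between 62.9 and 125 CPM and a median of 92.9 CPM, to a8.19, with samples at 202, 151, 138 and 142 CPM, it rose by 0.77 ± 0.20 (adjusted p = 0.00609, and 0.424 with the A6.1 library put back). The groups did not overlap in this step, in which 15.4% of genes passed. From a8.19 to a9.37+a9.38 it rose by 1.00 ± 0.26 (adjusted p = 0.00481, and 0.458 with that library), again without overlap, in a step where 13.7% of genes passed. The former call was lost without 112-cell a-line embryo 1 (adjusted p = 0.0535) and the latter without neural plate a-line embryo 2 (adjusted p = 0.0717).

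For Gata.a, 0 of the same 8 steps passed the threshold of edgeR's test, and 1 had an unadjusted p below 0.05. This was A6.2 to A7.4, from samples between 41.0 and 88.7 CPM with a median of 59.8 CPM to samples between 18.2 and 23.9 CPM, with a log2 fold change of -1.60 ± 0.55 (unadjusted p = 0.00459, adjusted p = 0.081). The groups did not overlap. The adjusted p was 0.0199 with DESeq2 and 0.00169 with the newer quasi-likelihood method of edgeR, but 0.117 in a fit of the A line alone, 0.352 with the A6.1 library put back and between 0.0838 and 0.186 in the fits that each left out 1 embryo. Its other A-line steps were -0.41 ± 0.48 from A5.1 to A6.2, 0.34 ± 0.54 from A7.4 to A8.7 and -1.01 ± 0.71 from A8.7 to A9.13+A9.14. Its a-line steps were -0.85 ± 0.51 from a5.3 to a6.5, -0.50 ± 0.45 from a6.5 to a7.10, -0.72 ± 0.51 from a7.10 to a8.19 and -0.17 ± 0.62 from a8.19 to a9.37+a9.38. Of these 8 estimates 7 were below 0.

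**Figure D2:**
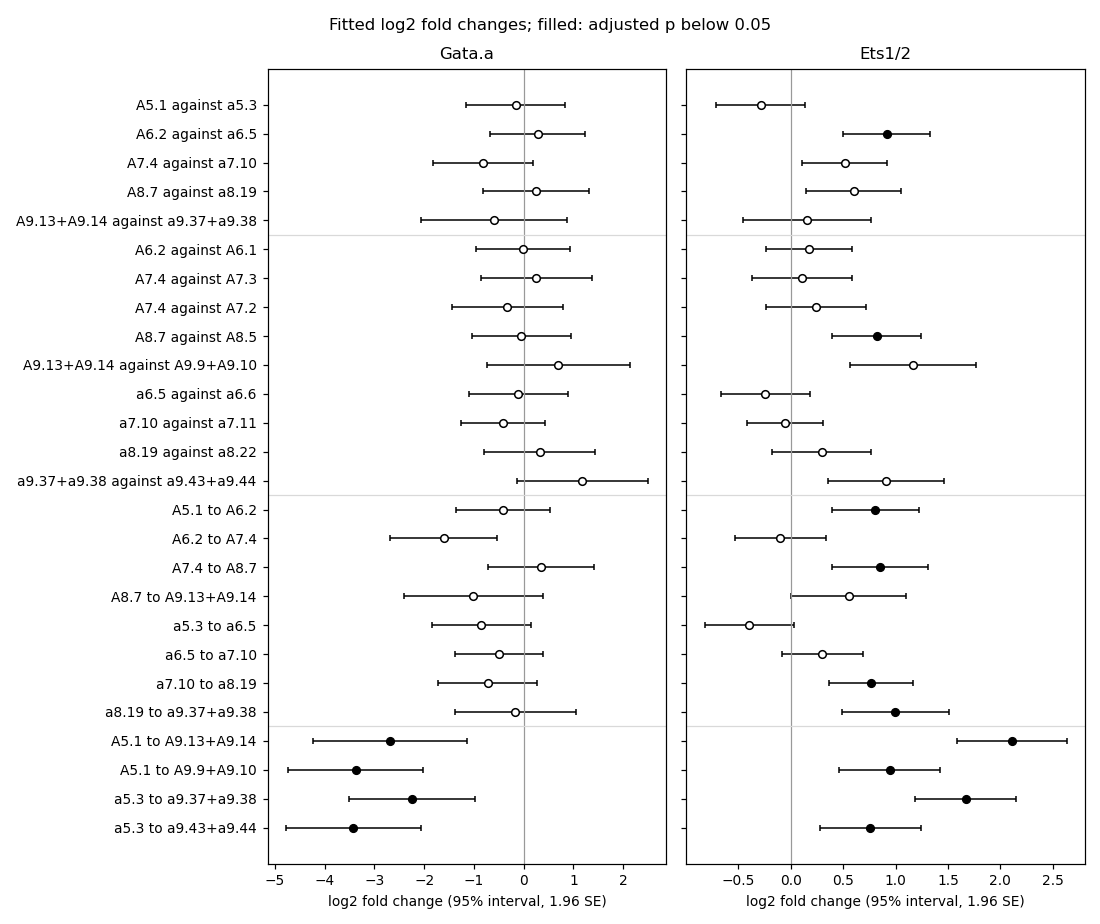
Fitted log2 fold change on the horizontal axis with its 95% interval for Gata.a (left) and Ets1/2 (right) in 26 comparisons, from the top A line against a line, neural side against partner, single steps, and 16 cells to neural plate. Filled points have an adjusted p below 0.05: the 4 comparisons at the bottom for Gata.a, between -3.43 and -2.24, and 10 for Ets1/2.

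The lineages were also set against each other within each step, a comparison added after values had been seen. For the step from 16 to 32 cells the A-line change of Ets1/2 exceeded the a-line change by 1.20 ± 0.30 on the log2 scale (adjusted p = 0.0496), where 0.312% of genes passed. The labels do not place 32-cell samples of both lineages in the same embryo, so lineage and embryo set cannot be told apart here. The Ets1/2 call sat at the threshold. It was lost with RLE size factors (adjusted p = 0.0561), without the filter on low counts (adjusted p = 0.0577) and with the A6.1 library put back (adjusted p = 0.935). Of the 16 fits that each left out 1 embryo, 14 lost it, with adjusted p up to 0.143, and those without 32-cell A-line embryo 3 (adjusted p = 0.0303) or 32-cell a-line embryo 1 (adjusted p = 0.0299) kept it.

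The same difference for Gata.a was 0.44 ± 0.70 (adjusted p = 0.975). For the step from 32 to 64 cells, where 7.55% of genes passed, the difference was -1.10 ± 0.70 for Gata.a (adjusted p = 0.383) and -0.40 ± 0.30 for Ets1/2 (adjusted p = 0.478). For the step from 64 to 112 cells, where 3.66% passed, it was 1.07 ± 0.74 for Gata.a (adjusted p = 0.485) and 0.08 ± 0.31 for Ets1/2 (adjusted p = 1). From 112 cells to the neural plate, where 0.159% passed, it was -0.84 ± 0.93 for Gata.a (adjusted p = 0.895) and -0.45 ± 0.39 for Ets1/2 (adjusted p = 0.805). None of these passed the threshold.

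The neural-side cells were next compared with partner cells of the same stage and lineage, most of them from the same embryos. The main test did not use this pairing, which entered only the alternative fit with the embryo as a block. Ets1/2 was higher in A8.7, the neural-side cell of the 112-cell A line, than in A8.5, its notochord counterpart. In embryos 2, 3, 5, 6 and 7 A8.7 was at 235, 312, 237, 189 and 224 CPM and A8.5 at 115, 205, 54.1, 91.3 and 212 CPM. A8.7 was the higher in 5 of 5 embryos, although the groups overlap. The log2 fold change was 0.82 ± 0.22 (adjusted p = 0.0358, and 0.752 with the A6.1 library put back), where 1.08% of genes passed, and 0.97 with the embryo as a block (adjusted p = 0.00431). The call was lost without embryo 2 (adjusted p = 0.106), embryo 5 (adjusted p = 0.197) or embryo 6 (adjusted p = 0.114), and in a fit of the 112-cell stage alone (adjusted p = 0.428).

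At the neural plate stage Ets1/2 was higher on the neural side in 5 of 5 embryos, but neither lineage passed the threshold. A9.13+A9.14 was at 301 and 402 CPM in embryos 1 and 2, against 153 and 164 CPM in A9.9+A9.10 of the same embryos and 154 CPM in embryo 3. The log2 fold change was 1.16 ± 0.31 (adjusted p = 0.074, where 0.319% of genes passed). In embryos 1, 2 and 3 of the a line, a9.37+a9.38 was at 282, 390 and 275 CPM against 175, 212 and 117 CPM in a9.43+a9.44. The log2 fold change was 0.91 ± 0.28 (adjusted p = 0.144, where 0.681% of genes passed). The groups did not overlap in either lineage. Across the alternatives the A-line and a-line differences moved to either side of the threshold. They passed with DESeq2 (adjusted p = 0.021 and 0.0409) and with the newer quasi-likelihood method of edgeR (adjusted p = 0.00403 and 0.0375). They did not pass with the embryo as a block (adjusted p = 0.121 and 0.0526), in a fit of the neural plate stage alone (adjusted p = 0.18 and 0.166) or with the A6.1 library put back (adjusted p = 0.904 and 1).

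In the earlier pairs Ets1/2 did not pass the threshold. Its log2 fold change was 0.18 ± 0.21 for A6.2 against A6.1, where 0% of genes passed, with a 95% interval from -0.23 to 0.58. It was 0.11 ± 0.24 for A7.4 against A7.3, where 0.00725% passed, and 0.24 ± 0.24 for A7.4 against A7.2, where 0% passed. In the comparisons with A6.1 and A7.2, in which edgeR called no gene, 676 and 848 genes had an unadjusted p below 0.05, and DESeq2 called 78 and 123. By chance alone a share of 0.05 of the 13794 genes tested falls below that unadjusted p, so 676 and 848 do not show how many genes differ. In the a line the log2 fold change of Ets1/2 was -0.24 ± 0.22 for a6.5 against a6.6, where 0.0362% passed. It was -0.05 ± 0.19 for a7.10 against a7.11, where 0.413% passed, and 0.30 ± 0.24 for a8.19 against a8.22, where 0.348% passed. The adjusted p was 0.78 for a8.19 against a8.22 and 1 in the other 5 pairs.

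Gata.a passed the threshold in none of the 9 neural against partner comparisons. Its log2 fold changes lay between -0.42 ± 0.43 for a7.10 against a7.11 and 1.18 ± 0.67 for a9.37+a9.38 against a9.43+a9.44, with adjusted p of at least 0.616. The intervals were wide: for A8.7 against A8.5 the estimate was -0.04 with a 95% interval from -1.04 to 0.95, and for A9.13+A9.14 against A9.9+A9.10 it was 0.69 with an interval from -0.74 to 2.13. The value for a9.37+a9.38 rests on embryo 3, at 34.8 against 0 CPM, and was -0.12 without it. The value for A9.13+A9.14 was 0.15 with the embryo as a block and 0.13 without neural plate A-line embryo 3, in which A9.9+A9.10 was at 0 CPM. The lowest unadjusted p of edgeR's test among the 9 was 0.0828, and DESeq2 called 0 of them.

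**Figure D3:**
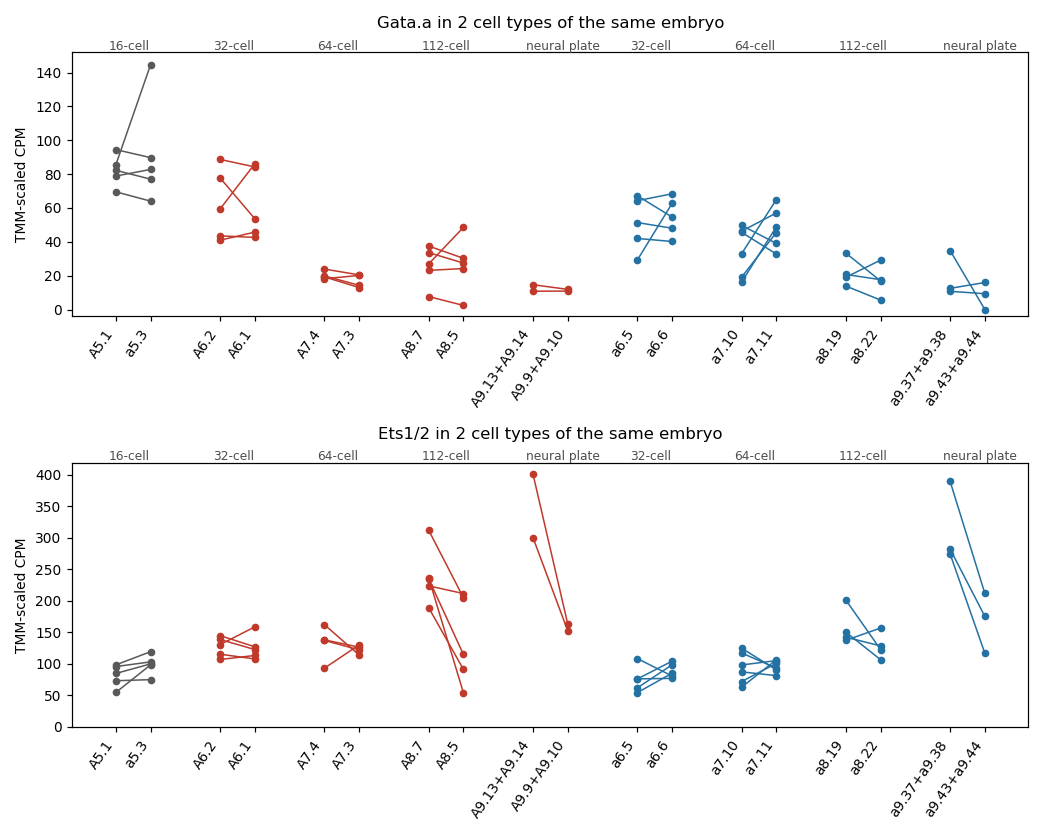
Gata.a (upper) and Ets1/2 (lower) in TMM-scaled CPM, with each line joining 2 cell types of 1 embryo. Grey lines join A5.1 and a5.3, red lines A-line cells and blue lines a-line cells, with the neural side on the left of each red or blue pair. The Ets1/2 lines descend from neural side to partner in 5 of 5 embryos in A8.7 and A8.5 and in all 5 neural plate embryos, whereas those of Gata.a run in both directions in every pair of cell types.

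Between the lineages, neural-side cells of the same stage were compared at each of the 5 stages. From 32 cells on the labels do not place samples of both lineages in the same embryo. Lineage and embryo set therefore cannot be told apart at those stages. Ets1/2 was higher in A6.2 than in a6.5 at 32 cells. The A6.2 samples lay between 107 and 219 CPM with a median of 135 CPM, and the a6.5 samples were at 76.0, 54.3, 61.8, 76.2 and 109 CPM. The groups overlapped in 1 a6.5 sample, the highest, which was above the lowest A6.2 sample. The log2 fold change was 0.92 ± 0.21 (adjusted p = 0.00363, and 0.499 with the A6.1 library put back), and the call held in all 11 fits that each left out 1 embryo (adjusted p up to 0.024). 5.24% of genes passed in this comparison.

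At the other stages Ets1/2 did not pass. A5.1 was below a5.3 in 5 of 5 embryos, with a log2 fold change of -0.29 ± 0.22 (adjusted p = 1, where 0.0217% of genes passed). It was 0.52 ± 0.21 for A7.4 against a7.10 (adjusted p = 0.0969, where 10.2% passed), 0.60 ± 0.23 for A8.7 against a8.19 (adjusted p = 0.135, where 2.16% passed) and 0.15 ± 0.31 for A9.13+A9.14 against a9.37+a9.38 (adjusted p = 1, where 0.174% passed). Gata.a passed in none of the 5 comparisons, with log2 fold changes of -0.16 ± 0.51, 0.28 ± 0.49, -0.82 ± 0.51, 0.25 ± 0.54 and -0.60 ± 0.75 from the 16-cell to the neural plate stage and adjusted p of at least 0.337. The lowest unadjusted p among these 5 was 0.112, and DESeq2 called 0 of them.

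The ratio of Gata.a to Ets1/2 counts within a sample does not depend on how libraries are scaled, and its change between samples was followed as a measure of the balance between both RNAs. The ratio itself also depends on the lengths of both transcripts, which were not used here, so only its changes are compared. On the log2 scale, with a pseudocount of 0.5, it was 0.04 ± 0.44 (SD, n = 5) in A5.1 and -0.16 ± 0.41 (SD, n = 5) in a5.3. On the neural side of both lineages its mean was lower at each later stage, at -1.22 in A6.2 and -0.59 in a6.5, -2.68 in A7.4 and -1.45 in a7.10, and -3.37 in A8.7 and -2.91 in a8.19. At the neural plate stage it was -4.78 in A9.13+A9.14 and -4.21 in a9.37+a9.38, and -5.83 and -6.13 in the partners A9.9+A9.10 and a9.43+a9.44, each with 1 sample at 0 counts of Gata.a.

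In all 4 series, which share 16-cell samples and embryos and so are not independent, the neural plate samples lay below every 16-cell sample. The two-sided exact permutation test over samples gave the smallest p that it can reach in each, 0.0476 for A9.13+A9.14 against A5.1 and 0.0179 in the other 3. Adjusted over the 9 ratios tested these were 0.0857 and 0.0536 and missed the threshold. Without the neural plate embryo at 0 counts the difference from 16 cells was -3.83 in A9.9+A9.10 in place of -5.87, and -3.82 in a9.43+a9.44 in place of -5.97. Between the lineages the ratio in A7.4 was lower than in a7.10 by 1.23 on the log2 scale, or 2.35-fold (exact permutation p = 0.0283, adjusted 0.0636). The labels do not place 64-cell samples of both lineages in the same embryo, so lineage and embryo set cannot be told apart. With 1 embryo left out at a time this log2 difference ran from -1.45 to -1.08. It passed the threshold only without 64-cell a-line embryo 8, at -1.45 (exact permutation test, adjusted p = 0.0402). The other 4 lineage comparisons had exact permutation p of at least 0.11.

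**Figure D4:**
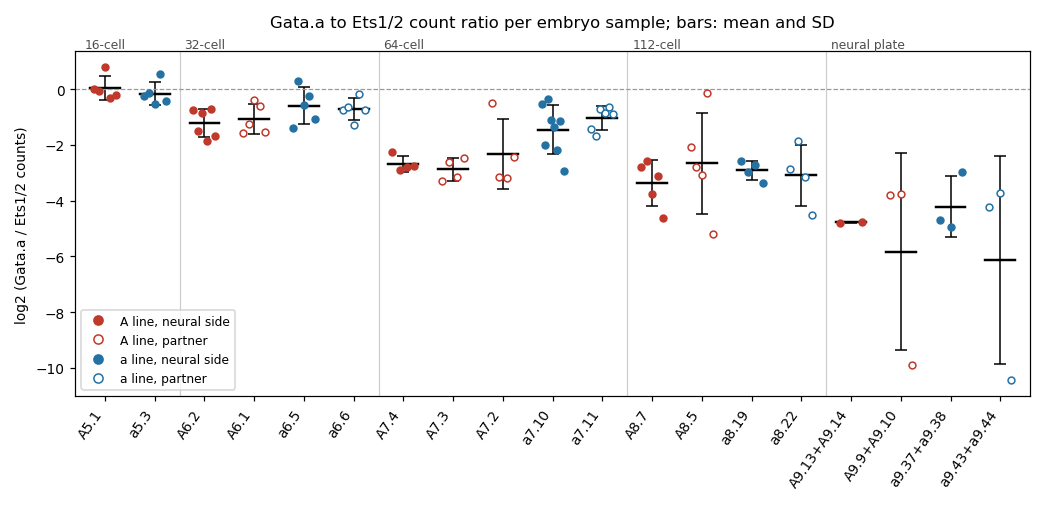
Log2 ratio of Gata.a to Ets1/2 counts in every embryo sample, by cell type and stage, with lines at the mean and bars of 1 SD; colours as in the plot of levels, and a dashed line at equal counts. The means descend from 0.04 in A5.1 and -0.16 in a5.3 to -4.78 in A9.13+A9.14 and -4.21 in a9.37+a9.38, and the 2 lowest points are the samples with 0 counts of Gata.a.

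Maternal RNA can differ from egg to egg, so it was asked whether embryos with a high level in 1 cell also had one in its partner. At 16 cells A5.1 was paired with a5.3, both on the neural side, and at 64 cells A7.4 was paired with A7.3. The deviations from the cell type mean (log2 of CPM + 0.5) of neural-side and partner cells correlated over 39 embryos with Pearson's r = 0.10 for Gata.a (permutation p = 0.617) and 0.13 for Ets1/2 (permutation p = 0.42). Spearman's rho was 0.14 (permutation p = 0.442) and 0.088 (permutation p = 0.615). Without the 2 embryos farthest from the median r was 0.085 and 0.18. Within groups of 1 stage and lineage, both cells of an embryo deviated to the same side in 23 of 39 embryos for Gata.a and in 20 of 39 for Ets1/2. For Gata.a this ranged from 5 of 5 embryos in the 112-cell A line and 4 of 5 at 16 cells to 2 of 6 in the 64-cell a line and 0 of 3 in the neural plate a line. For Ets1/2 it ranged from 4 of 5 at 16 cells and 2 of 2 in the neural plate A line to 1 of 4 in the 64-cell A line and in the 112-cell a line. The 64-cell a line was the one group with 6 embryos, and r was -0.23 for Gata.a and -0.44 for Ets1/2 there.

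The deviations of Gata.a and Ets1/2, averaged over the cells of an embryo, correlated over 43 embryos with r = 0.14 (permutation p = 0.512), rho = 0.047 (permutation p = 0.791) and r = 0.036 without the 2 farthest embryos. Within a stage and lineage r was 0.15 in 6 embryos of the 32-cell A line and -0.50 in 8 embryos of the 64-cell a line. Adjusted over these 3 relations every p was at least 0.617. Over all stages no effect of the embryo on either gene was detectable at this number of embryos, and the groups of 2 to 5 embryos are too small for a correlation of their own.

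Left and right cells of the same type and embryo give the spread below the level of the embryo. For Ets1/2 the 39 left and right pairs differed by a median of 1.20-fold and at most 2.17-fold. For Gata.a the median was 1.38-fold over the 38 pairs in which both cells had counts. The largest difference among these was 34.7-fold, in a neural plate pair. On the log2 scale the median difference of Gata.a was 0.31 at 16 cells, 0.33 at 32, 0.31 at 64, 0.72 at 112 and 0.97 in the neural plate. At 64 cells the largest difference was already 11.4-fold. In 1 pair of a8.19 cells at 112 cells the left cell had 0 of 7815230 counts, which allows up to 0.384 CPM. The right cell of that pair had 343 counts, or 39.3 CPM, and the pair is not among the 38. Neural plate libraries were also the shallowest, with a median total of 4685622 counts against 9242316 at 16 cells, and the part of depth in this spread was not tested.

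**Figure D5:**
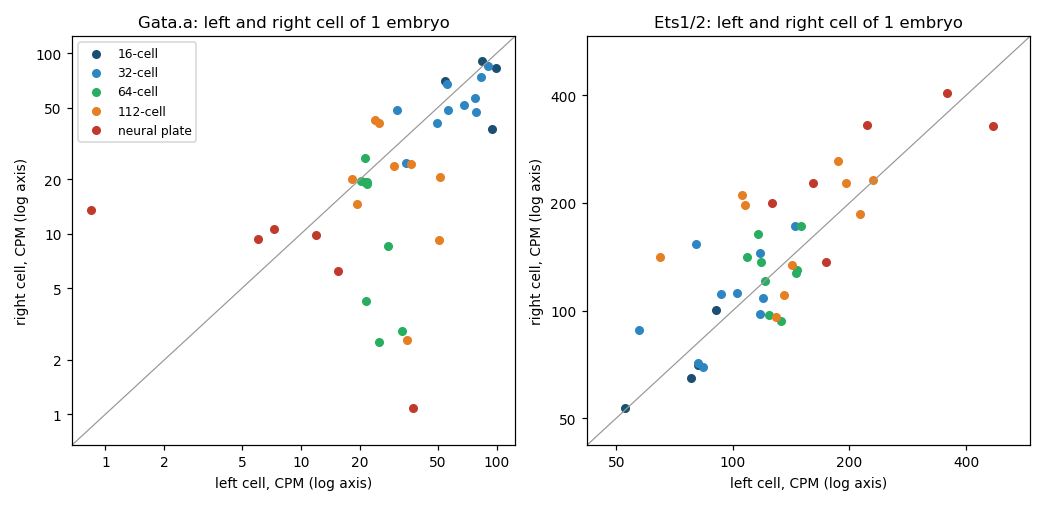
Level in the left against the right cell of 1 embryo in CPM on log axes for Gata.a (left panel, 38 pairs) and Ets1/2 (right panel, 39 pairs), coloured by stage, with the line of equality. Ets1/2 pairs stay within 2.17-fold of each other, and the widest Gata.a pairs are from the 64-cell, 112-cell and neural plate stages.

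Over the 19 cell types the mean levels of both genes ran in opposite directions, with r = -0.60 and rho = -0.64 on log2(mean CPM + 1). This is a description only, since both genes are read from the same libraries and several cell types come from the same stage and embryos. Among 9091 genes with a mean of at least 5 CPM, the profiles most like that of Gata.a were those of KH.C8.601 (r = 0.95, rho = 0.94) and KH.C2.1106 (r = 0.94, rho = 0.88). KH.C8.601 was at 357 CPM in a5.3, 350 CPM in A5.1 and 74.7 CPM in A9.9+A9.10. The profiles most like that of Ets1/2 were those of KH.C6.128 (r = 0.90, rho = 0.85) and KH.C4.506 (r = 0.89, rho = 0.73). KH.C4.506 was at 587 CPM in a9.37+a9.38, 119 CPM in A8.7 and 552 CPM in A9.13+A9.14, and at most 10.3 CPM in the other 16 cell types, so its likeness rests on the cell types in which Ets1/2 is at its highest.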

How the data were processed

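Per the labels' protocols, each cDNA was amplified from 1 blastomere with a low-input template-switching kit, tagmented, and sequenced as single-end reads. The authors deposited raw read counts per gene model, without normalization. The submitters' processing notes name the aligner STAR 2.7.10a. The genome build, annotation, counting program and strand setting were not given in the sources used here, so reads shared with overlapping or near-identical genes cannot be told apart. Counts are amplified reads and not molecules, and limits at 0 counts (3 counts of the total) cover counting error only.

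Counts of the same cell type and embryo were summed, and all 19 cell types entered 1 edgeR quasi-likelihood fit (edgeR 4.0.16, R 4.3.3; TMM, filterByExpr by group, robust), which tested 13794 genes in 31 comparisons. Adjusted p-values are edgeR's with Benjamini-Hochberg over all genes of a comparison, with a threshold of 0.05, and the text names DESeq2 1.42.0 where it was used. SEs come from the F statistic. 4 of the 31 comparisons were added after values had been seen. Ratios were tested with exact permutation tests, and relations over embryos with 100000 permutations within stage and lineage. The fit was also run on counts simulated with its own spread trend. These held no outlying library, so that run does not bear on such libraries in the data. The 2 genes named as most alike per member are those with the highest Pearson r. The members and lists were chosen with earlier results of these data known. Lists of pathway genes and cell type markers could not be applied, since 0 KH identifiers were in the reference table. The labels place same-numbered cells of a lineage, and A5.1 and a5.3, in the same embryo. Deviations of such cells correlated with a mean r from 0.043 (a8.19 and a8.22) to 0.41 (A6.2 and A6.1), so the embryo was a block in an alternative fit. Nothing in the labels says that embryos came from separate parents, so p-values measure the spread between embryos. 0 columns were left unmatched.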

Additional observations from a re-analysis of the deposited data

Results flagged for a closer look

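2 embryo samples lay far from the others of their cell type, among 45 groups of 4 or more samples in which this was looked for; chance alone flags about 1 in 20 groups. Gata.a in A7.2 of 64-cell A-line embryo 2 was at 52.6 CPM, against 13.8 to 20.3 CPM in the other 3 embryos. Ets1/2 in A6.2 of 32-cell A-line embryo 5 was at 219 CPM, against 107 to 145 CPM in the other 5 embryos; this is the embryo whose A6.1 library was left out. Another result stands here because it differs between lineages in a test of the difference itself: the A-line minus a-line change of Ets1/2 from 16 to 32 cells, 1.20 on the log2 scale, whose adjusted p of 0.0496 was lost under several alternatives.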

How the results depend on the processing

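RLE size factors and the fit without the filter on low counts lost 1 call, the lineage difference of Ets1/2 from 16 to 32 cells (log2 1.19 and 1.20), and library totals alone changed no call of either gene. DESeq2 added calls of Ets1/2 in A9.13+A9.14 against A9.9+A9.10 (1.12) and a9.37+a9.38 against a9.43+a9.44 (0.93) and of Gata.a from A6.2 to A7.4 (-1.60); the newer quasi-likelihood method, added after the data were seen, added the same (1.18, 0.88 and -1.58). With each library as its own sample, cells of 1 embryo count as replicates, so its p-values are too small and the calls it added support nothing: these were the same 3 (1.07, 0.83 and -1.56), with Ets1/2 in A7.4 against a7.10 (0.56) and from A8.7 to A9.13+A9.14 (0.60).

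With the A6.1 library put back, calls were lost for Ets1/2 in A6.2 against a6.5 (0.93), A8.7 against A8.5 (0.83), A5.1 to A6.2 (0.80), A7.4 to A8.7 (0.88), a7.10 to a8.19 (0.79), a8.19 to a9.37+a9.38 (0.96), A5.1 to A9.13+A9.14 (2.09), A5.1 to A9.9+A9.10 (0.93), a5.3 to a9.37+a9.38 (1.66), a5.3 to a9.43+a9.44 (0.76) and the lineage difference from 16 to 32 cells (1.19). Calls of Gata.a were lost from A5.1 to A9.13+A9.14 (-2.70) and a5.3 to a9.37+a9.38 (-2.24). A6.2 against A6.1 then passed for Gata.a (-3.72) and turned for Ets1/2 (-4.06), with A6.1 means of 790 CPM for Gata.a and 2302 CPM for Ets1/2. These means rest on the library put back, whose TMM factor of 0.0336 scaled it to 4442 CPM for Gata.a and 13206 CPM for Ets1/2. The other A6.1 samples lay between 41.5 and 81.8 CPM for Gata.a and between 103 and 154 CPM for Ets1/2. Separate fits per stage or lineage lost Ets1/2 in A8.7 against A8.5 (0.82) and A7.4 to A8.7 (0.87). The replicate block of the embryo changed no call; it turned Gata.a in A8.7 against A8.5 to 0.22.

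Other values near 0 changed sign: Gata.a in A8.7 against A8.5 was 0.055 with each library as its own sample and 0.024 with the newer method. Gata.a in A6.2 against A6.1 was 0.0056 with the newer method. Ets1/2 from A6.2 to A7.4 was 0.054, and its lineage difference from 64 to 112 cells -0.0022, with each library as its own sample. Counts of called genes moved by over 1.5 times in 20 of 31 comparisons with DESeq2 (20 higher), in 27 with the A6.1 library (26 lower), in 22 with single libraries (22 higher), in 18 with the newer method (18 higher), in 14 of 26 with separate fits (10 lower, 4 higher), in 3 of 10 with the block (3 higher), and in 1 each with library totals (higher) and no filter (lower).

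Leaving out 1 embryo at a time, which kept the genes and spread trend of the full fit, gave for Ets1/2 0.63 to 1.07 in A8.7 against A8.5, 0.71 to 0.99 from A7.4 to A8.7, 0.63 to 0.86 from a7.10 to a8.19, 0.78 to 1.12 from a8.19 to a9.37+a9.38, 0.48 to 0.89 from a5.3 to a9.43+a9.44 and 1.04 to 1.37 for the lineage difference from 16 to 32 cells. For Gata.a it gave -3.01 to -2.53 from A5.1 to A9.13+A9.14 and -3.06 to -2.01 from a5.3 to a9.37+a9.38. Values that missed the threshold and spanned 0 were, for Ets1/2, -0.25 to 0.061 from A6.2 to A7.4, -0.074 to 0.27 in A7.4 against A7.3, -0.091 to 0.35 in A9.13+A9.14 against a9.37+a9.38, -0.15 to 0.042 in a7.10 against a7.11 and -0.052 to 0.23 for the lineage difference from 64 to 112 cells. For Gata.a they were -0.22 to 0.052 in A5.1 against a5.3, -0.14 to 0.14 in A6.2 against A6.1, -0.53 to 0.32 in A7.4 against A7.2, -0.16 to 0.27 in A8.7 against A8.5, -0.93 to 0.12 in A9.13+A9.14 against a9.37+a9.38, -0.23 to 0.089 in a6.5 against a6.6, -0.96 to 0.098 from a8.19 to a9.37+a9.38, -0.12 to 2.26 in a9.37+a9.38 against a9.43+a9.44 and -0.76 to 0.29 for the lineage difference from 16 cells to neural plate. The ratio ran from -1.45, past the threshold, to -1.08 in A7.4 against a7.10 and from -0.94 to 0.049 in A9.13+A9.14 against a9.37+a9.38, and a pseudocount of 1 moved none of the 9 ratios across the threshold.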
